A study of Sus scrofa with 18 samples.

Results

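Complete replacement of soybean extraction meal by insect meal was compared with the soybean meal diet through the liver transcripts of 12 growing pigs, 6 of group IM10 and 6 of group CON, out of 18 pigs with an array in all. The arrays were taken by the titles of the samples, which name the diet and a replicate number from 1 to 6. All 25388 probe sets of the porcine gene array entered the comparison, and 12307 different gene symbols could be given to 13257 of them. The difference given below is always the mean log2 value of group IM10 minus that of group CON, and a fold change is 2 to the power of that difference.

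Group IM10 was fed a diet with 10% insect meal made from larvae of the mealworm Tenebrio molitor, which took the place of 100% of the soybean extraction meal. Group CON was fed the same kind of diet with soybean extraction meal and 0% insect meal. A further group of 6 pigs, IM5, had 5% insect meal in place of 50% of the soybean meal and is given only beside group IM10. All pigs were males of a cross of Piétrain with German Landrace and German Edelschwein, were 5 weeks old at the start, ate their diet for 4 weeks and were killed on day 29. Protein and energy were kept alike between the diets. The insect meal diets held added cellulose, and the free amino acids and the plant oils also differed in amount between the diets. Differences therefore belong to the whole diets. Pens housed several pigs of 1 group. The labels do not tell which pig came from which pen, so the tests treated all pigs as independent and their p-values measure only the spread between these pigs.

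The liver is the first organ to receive amino acids, sugars and microbial products absorbed from the gut. It turns surplus amino nitrogen into urea, makes bile acids and most plasma proteins, stores glycogen and fat, and controls body iron through the hormone hepcidin. Much of this is regulated by changes in messenger RNA, among others through growth hormone, insulin, bone morphogenetic proteins (BMP), sterol sensors and the circadian clock. An array of whole liver cannot tell fewer cells of a type from less RNA per cell.

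The 12 arrays were alike, with medians of 5.06 to 5.11 (log2) and pairwise correlations across probe sets of at least 0.988. Hepatocyte markers checked the tissue, with 9 genes measured, 0 meeting the criteria below and a mean level between 11.49 and 11.55 in group IM10 and between 11.50 and 11.57 in group CON. The median SD between pigs of 1 group was 0.144 in group IM10 and 0.147 in group CON. Pigs IM10 1, IM10 2 and IM10 5 stood above every control in the mean of 13 smooth muscle markers, at 6.34, 6.39 and 6.49 against at most 6.12 in group CON, while the other 3 pigs of group IM10 lay between 5.94 and 6.07. A sample of liver can hold more or less of a large vessel or duct, and the part of this in the results below was not tested. Calls lost without these pigs are named in each paragraph. Leaving them out was planned only for the count of rises, not for single genes or lists.

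A transcript was called changed when it met the criteria that the study set, a fold change above 1.2 and a p below 0.05 without adjustment, here taken from the two-sided limma test. These criteria were met by 526 probe sets (2.07%), of which 323 were higher in group IM10 (1.27% of all) and 203 were lower (0.800%). With 1 probe set for each named gene, 220 of 12307 genes changed (1.79%), 138 upwards (1.12%) and 82 downwards (0.666%). Most changes were small. Only 7 named genes rose and 7 fell by over 1.5-fold, and 5 and 3 by over 2-fold. At all sizes together, 48.9% of the named genes were higher in group IM10 and the median difference was -0.002. RMA makes the arrays alike as a whole, so these values do not weigh rises against falls. The criteria are lenient: 0 probe sets had an adjusted p under 0.05 by limma (smallest 0.21), while 1541 or 6.07% had an unadjusted p under 0.05, as had 717 or 5.83% of the named genes. The methods' t-test gave 231 rises and 137 falls at the same criteria and 0 after adjustment. The paper reports fewer transcripts in both directions with this test and these criteria, and the reason was not tested. Of the 220 named genes that met the criteria, 157 had a p under 0.05 in an exact permutation test of the group means. Exact p-values are printed below for some of these only, and those left out include larger ones, such as 0.0996 for ACSL4. Words such as rose and fell below mean only that the criteria were met.

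**Figure D1:**
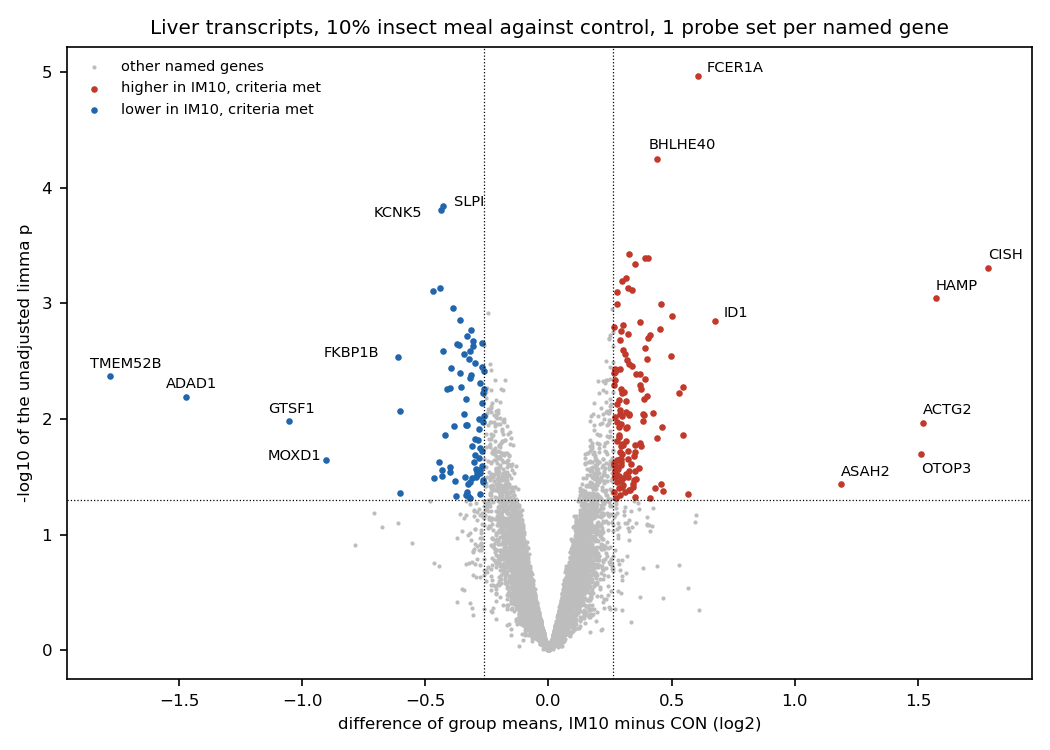
Difference between group IM10 and group CON (x axis, log2) against the -log10 of the unadjusted limma p (y axis) for 12307 named genes, 1 probe set each. Dotted lines mark the criteria, which 138 genes met above and 82 below 0; CISH and HAMP lie farthest to the right, and OTOP3, TMEM52B, MOXD1 and FKBP1B were labelled after their values were seen.

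Many changes had no gene name, since 174 of the 323 probe sets that rose and 111 of the 203 that fell were not listed in the annotation. The calls came from all levels of signal. With the probe sets divided by mean level into 3 equal bins, 128 rose and 74 fell in the dimmest bin, 110 rose and 52 fell in the middle and 85 rose and 77 fell in the brightest. Leaving out 1 of the 12 pigs at a time gave 314 to 373 rises and 195 to 256 falls. Of 108 genes that are named below and met the criteria, 54 met them in every one of these 12 refits and 54 lost them in at least 1, and the direction was the same in each refit for all of them. Without the 3 pigs high in smooth muscle markers, 60 of the 108 genes met the criteria. Of the other 48, 26 no longer had a fold above 1.2 and 22 kept one but had a p of 0.05 or more, in a comparison of 3 pigs with 6. A value given below for a gene without these 3 pigs is its difference. Some lost calls kept nearly the same or a larger difference, such as CYP7A1 (0.36 against 0.37 with all pigs) and ACSL4 (0.55 against 0.46). Genes that lost the criteria in at least 1 of the 12 refits are said to be sensitive to single pigs, with the number of refits that lost them or the pigs concerned.

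In some probe sets the 6 pigs of group IM10 did not overlap with the 6 pigs of group CON. This held for 34 probe sets that were higher in group IM10 (0.134% of all) and 31 that were lower (0.122%), together 65 or 0.256%, and 20 of the higher and 10 of the lower met the criteria. Centring each array on its median turned this split to 20 higher and 47 lower. Of the named genes 17 were higher (0.138%) and 15 lower (0.122%) without overlap, together 32 or 0.260%, and 11 rises and 3 falls among them met the criteria. For each of these 14 genes the exact permutation test of the group means gave p = 0.00216, the smallest that 6 against 6 pigs allow, but they were picked for this separation. Chance alone would separate about the same share, 0.00216, of all probe sets in either direction. The 0.256% seen is close to this, so separation by itself does not mark a gene as changed.

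CISH, which restrains cytokine and growth hormone signals that pass through STAT5, had the largest rise of the named genes. RDH16, which the paper reports as the strongest rise in liver, was not among the named genes that met the criteria. The paper lists it under a locus symbol, and whether a probe set without a name carries it was not checked. Over all probe sets 10 rose by over 2-fold, against 5 among the named genes. The lowest, median and highest values of CISH were 5.72, 7.22 and 8.62 in group IM10 and 5.06, 5.46 and 5.69 in group CON. The difference was 3.45-fold. The spread was wide in group IM10 only (SD 1.16, against 0.27 in group CON), and the lowest pig of group IM10 was barely above the highest control. HAMP, the gene of hepcidin, showed the opposite picture, with values of 8.01, 8.27 and 8.67 in group IM10 and 5.31, 6.70 and 7.94 in group CON. Here the pigs of group IM10 were close together (SD 0.22) and the controls ranged widely (SD 1.11), and the difference was 2.97-fold.

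ID1 and ACVR1 belong to the same pathway as HAMP. ID1, an inhibitor of transcription factors that BMP signals induce, had 7.07, 7.26 and 7.73 in group IM10 against 6.09, 6.86 and 7.06 in group CON (1.6-fold). ACVR1, a type I receptor for BMPs, had 8.04, 8.16 and 8.25 in group IM10 against 7.73, 7.86 and 8.01 in group CON (1.21-fold). For both genes the lowest pig of group IM10 was only just above the highest control, and ACVR1 fell short of 1.2-fold without CON replicate 5, IM10 replicate 3 or IM10 replicate 4 (differences between 0.25 and 0.31 over all refits).

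FCER1A, the alpha chain of the mast cell receptor for IgE, had the smallest p of all named genes. Its values were 4.79, 5.00 and 5.07 in group IM10 and 4.13, 4.28 and 4.70 in group CON (1.52-fold). BHLHE40, a repressor in the circadian clock, had 8.78, 8.95 and 9.06 in group IM10 against 8.2, 8.52 and 8.65 in group CON (1.36-fold). Both genes met the criteria in each refit without 1 pig.

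The other 5 separated rises concerned genes of unlike kinds. ITM2A, a transmembrane protein of developing muscle, cartilage and T cells, had 3.93, 4.06 and 4.43 in group IM10 against 3.57, 3.70 and 3.82 in group CON (1.32-fold). CSTL1, of the cystatin family of protease inhibitors, had 3.93, 4.08 and 4.18 in group IM10 against 3.56, 3.76 and 3.91 in group CON (1.24-fold). XKR9, of a family of membrane proteins that scramble phospholipids, had 6.37, 6.46 and 6.56 in group IM10 against 6.00, 6.18 and 6.36 in group CON (1.23-fold). The pigs of group IM10 were above all controls in each case, though barely for XKR9 and CSTL1. CLDN5, a tight junction protein of endothelium, had 5.54, 5.70 and 5.86 in group IM10 against 5.33, 5.46 and 5.51 in group CON (1.21-fold), and it was sensitive to CON replicate 1, IM10 replicate 1 and IM10 replicate 5 (differences of 0.25 to 0.31) and did not meet the criteria without the 3 pigs high in smooth muscle markers (0.21). PIWIL3, a germ cell protein that binds small RNAs, lay near the bottom of the scale at 2.69, 2.75 and 3.24 in group IM10 against 2.13, 2.49 and 2.68 in group CON (1.30-fold), and its other probe set differed by only 0.09.

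Of the separated falls, SLPI had the smallest p. This inhibitor of neutrophil proteases had 5.53, 5.80 and 6.08 in group IM10 against 6.10, 6.22 and 6.36 in group CON (1.34-fold lower), and a second probe set held identical values. URB2, needed for the assembly of the large ribosomal subunit in yeast, had 4.28, 4.51 and 4.75 in group IM10 against 4.76, 4.90 and 5.23 in group CON (1.31-fold lower). FAM19A1, which encodes a small secreted protein known from the brain, had 2.92, 3.11 and 3.23 in group IM10 against 3.24, 3.32 and 3.90 in group CON (1.26-fold lower), and without CON replicate 6 its difference was -0.24 and no longer met the criteria. All 3 genes had lower values in each pig of group IM10, but the groups nearly touched. FAM19A1 did not meet the criteria without the 3 pigs high in smooth muscle markers (-0.28).

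**Figure D2:**
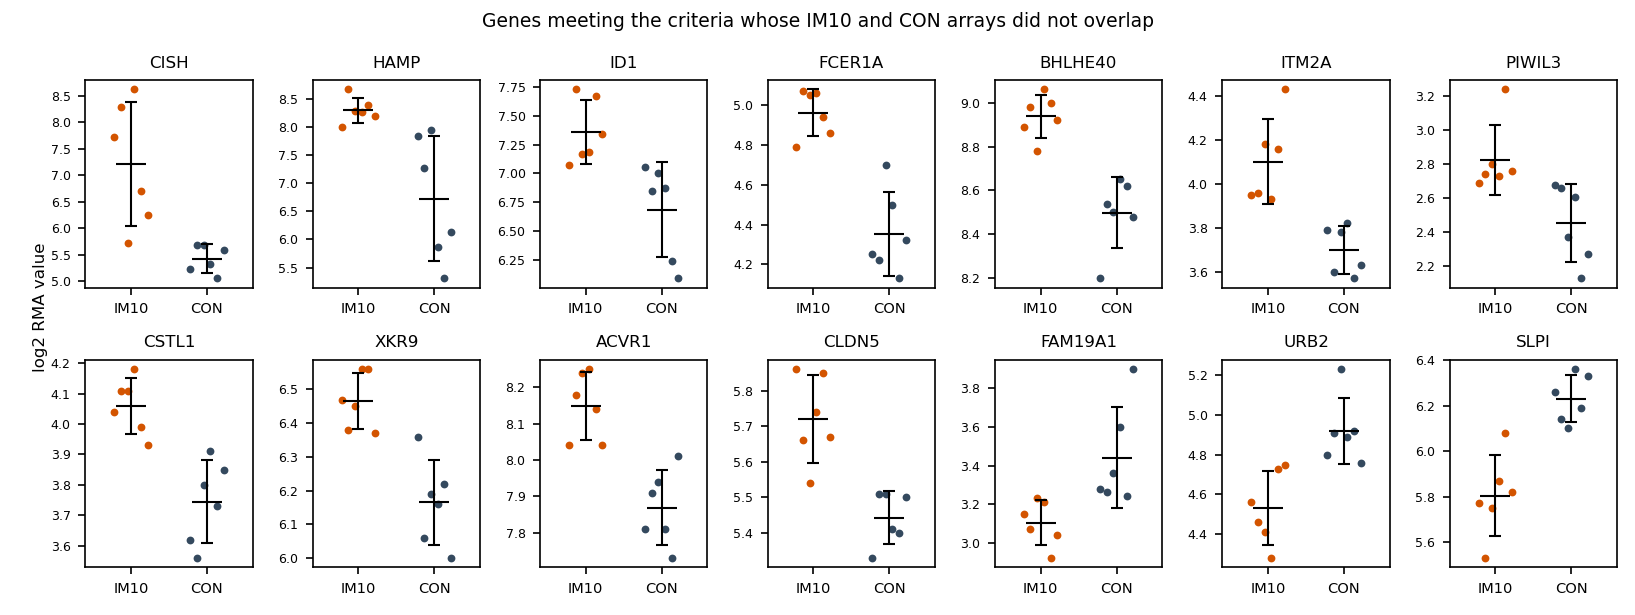
Log2 RMA values (y axis) of each pig for the 14 named genes that met the criteria without overlap, 11 higher and 3 lower in group IM10; points are pigs and bars the mean ± SD (n = 6 per group). Every point of group IM10 lies beyond every point of group CON.

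To describe the changes by function, 73 lists of genes were used, 59 of functions or gene families and 14 of cell type markers. They held 2382 different genes, of which 69 rose and 34 fell. In 20 lists 0 members met the criteria. The median difference was above 0.1 in 5 lists and below -0.1 in 0, beside -0.002 for all named genes. Of all named genes 1.12% rose and 0.666% fell, and these shares are given for scale only. The members and lists were chosen with earlier results of these data known. A list with a higher share than these therefore cannot be read as enriched.

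**Figure D3:**
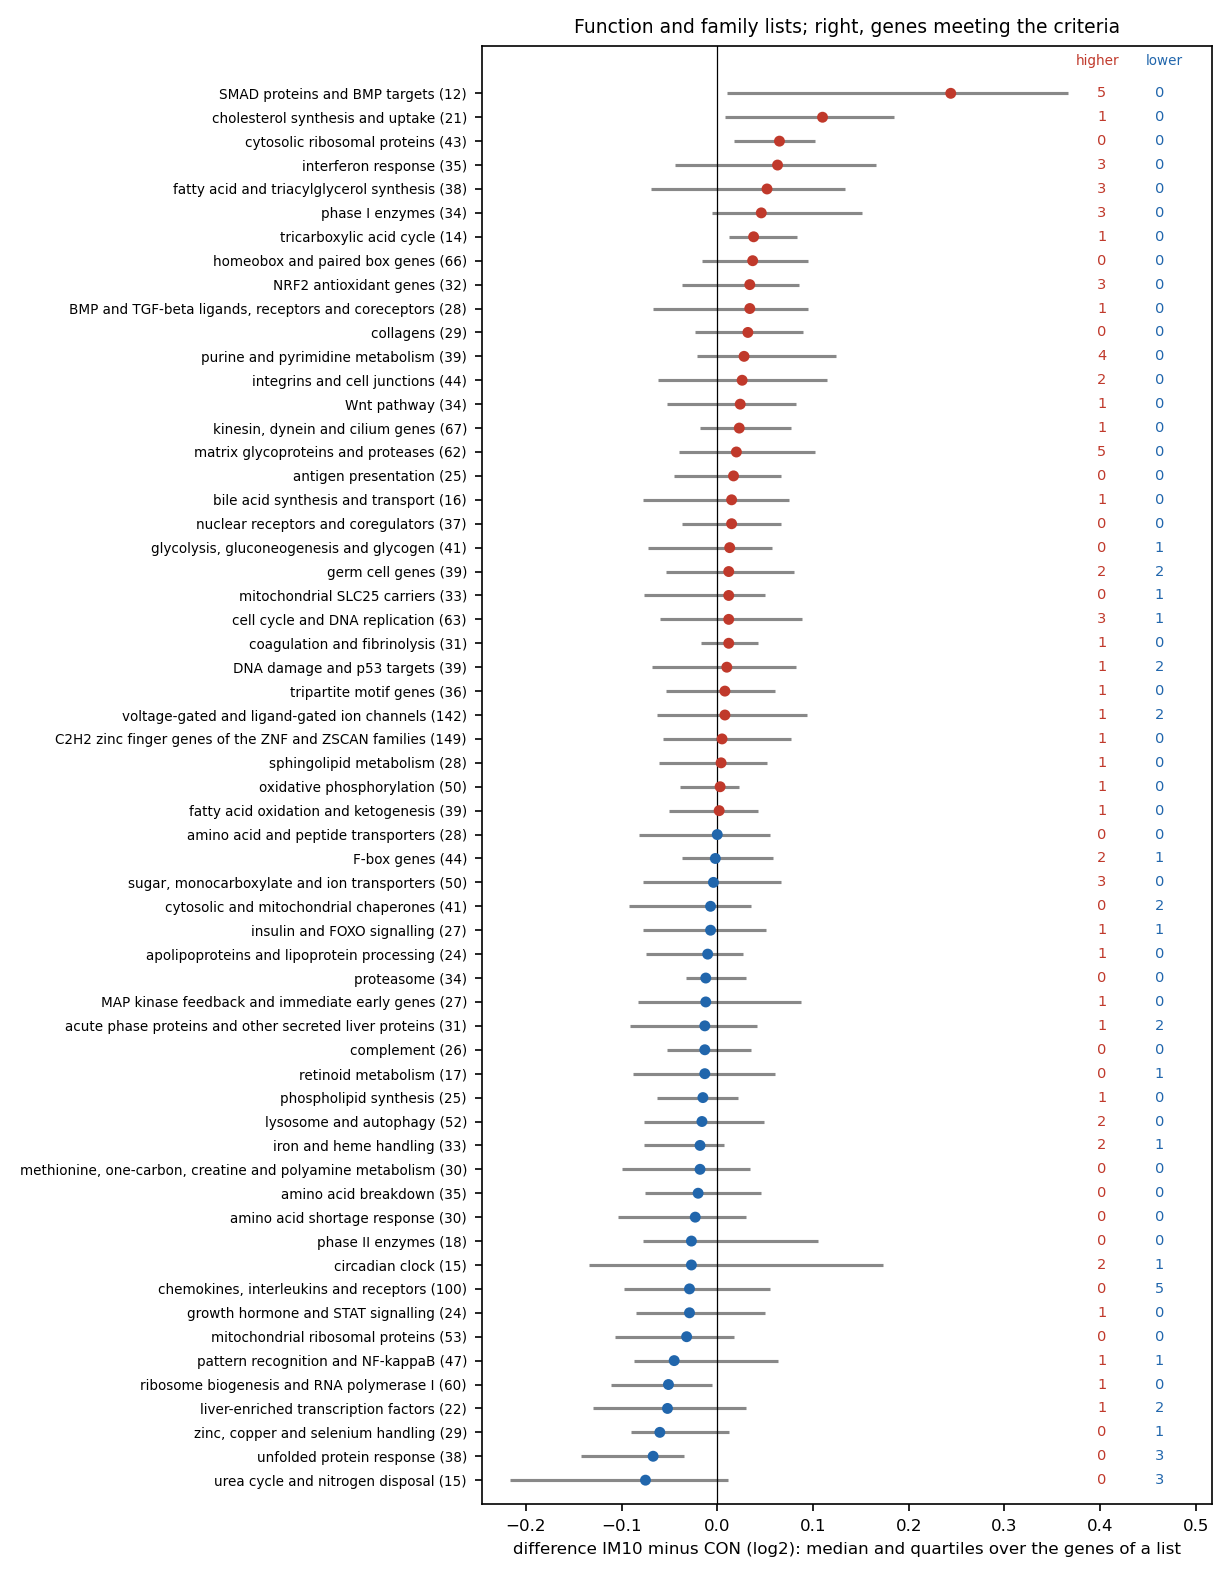
Median (point) and quartiles (line) of the differences between group IM10 and group CON (x axis, log2) over the genes of 59 function and family lists, with the number of genes measured after each name. The numbers on the right count the genes that met the criteria, led by the 5 rises among SMAD proteins and BMP targets and the 5 falls among chemokines and interleukins.

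In growth factor signalling, the SMAD proteins and BMP targets moved most. Of 12 genes 10 were higher, with a median difference of 0.244, and 5 rose. Besides HAMP and ID1 these were SMAD7, ID4 and KLF10. SMAD7, which blocks the receptors of this pathway, had 6.09, 6.26 and 6.64 in group IM10 against 5.45, 5.94 and 6.09 in group CON (1.37-fold). ID4, a relative of ID1, was 1.26-fold higher and KLF10, a repressor induced by TGF-beta, 1.25-fold. The mean over this list was the only 1 of the 73 list means without overlap, at 6.69 to 6.95 in group IM10 against 6.24 to 6.68 in group CON, and its median difference was 0.258 without the 3 pigs high in smooth muscle markers. Several of its members were already known to have changed when the list was drawn up. Upstream of them, the 28 ligands, receptors and coreceptors had a median difference of 0.034, and only ACVR1 rose.

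Other signalling lists held single changes. Among 24 genes of growth hormone and STAT signalling, 11 were higher and 13 lower, and CISH alone rose. Among 34 genes of the Wnt pathway, the receptor FZD4 rose, with 7.72, 7.95 and 8.38 in group IM10 against 7.48, 7.59 and 7.80 in group CON (1.29-fold, exact p = 0.00433), and 5 of the 6 pigs of group IM10 were above every control. The adaptor GRB7 rose 1.25-fold and the pseudokinase TRIB2 fell 1.21-fold among 27 genes of insulin and FOXO signalling. MYC, a driver of growth, rose 1.21-fold among 27 genes of MAP kinase feedback and the immediate early response. GRB7 was sensitive to CON replicate 1 (0.23 without it), TRIB2 lost the criteria in 8 of the 12 refits (differences of -0.37 to -0.19) and MYC in 6 (0.22 to 0.36). Neither MYC (0.21) nor TRIB2 (-0.19) met the criteria without the 3 pigs high in smooth muscle markers.

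Among 15 clock genes, the paired repressors BHLHE40 and BHLHE41 rose (1.36- and 1.22-fold) and NFIL3, a repressor that opposes the activator DBP, fell. NFIL3 had 6.86, 6.99 and 7.19 in group IM10 against 6.97, 7.34 and 7.63 in group CON (1.25-fold lower, exact p = 0.0108). The other 12 clock genes did not meet the criteria, and the median difference of the list was -0.027. BHLHE41 was lost in 4 of the 12 refits (differences of 0.20 to 0.34), and NFIL3 without CON replicate 2, where its difference was -0.26.

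Of 22 liver-enriched transcription factors 14 were lower, with a median difference of -0.052. FOXA2, which opens chromatin at many liver genes, stood against this trend with 5.92, 6.06 and 6.63 in group IM10 and 5.65, 5.78 and 5.93 in group CON (1.31-fold higher, exact p = 0.00433). MLX, the partner of the carbohydrate response factor ChREBP, fell 1.29-fold, with 7.60, 7.84 and 8.09 in group IM10 against 7.93, 8.23 and 8.44 in group CON. CEBPD, an acute phase factor, fell 1.26-fold on this probe set, whereas another differed by 0.08, and 4 of the 12 refits lost it (-0.42 to -0.24). Among 37 nuclear receptors and coregulators 0 genes changed. Neither MLX (-0.26) nor CEBPD (-0.34) met the criteria without the 3 pigs high in smooth muscle markers.

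Lipid genes rose more often than they fell. The list for making fatty acids and triacylglycerol had 20 of 38 genes higher, and LPIN1, DGAT2 and ME1 rose. LPIN1, the phosphatase that makes diacylglycerol, had 6.30, 6.76 and 7.02 in group IM10 against 5.84, 6.28 and 6.39 in group CON (1.41-fold, exact p = 0.00866). DGAT2, which adds the last fatty acid, had 9.94, 10.12 and 10.28 in group IM10 against 9.70, 9.86 and 9.99 in group CON (1.2-fold, exact p = 0.0108). In both genes 5 pigs of group IM10 lay above every control, but DGAT2 was close to the fold limit and lost the criteria in 6 of the 12 refits (0.23 to 0.30). ME1, which supplies NADPH, was 1.25-fold higher and owed much to IM10 replicate 3, without which its difference was 0.21. It also lost the criteria without CON replicate 2 or CON replicate 4 (0.21 to 0.37 over all refits). The median difference of the list was 0.052, and 0.018 without the 3 pigs high in smooth muscle markers. DGAT2 (0.23) and ME1 (0.38) did not meet the criteria without them, against differences of 0.27 and 0.32 with all pigs.

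The list of cholesterol synthesis and uptake had 16 of 21 genes higher, a median difference of 0.110 and 1 rise, INSIG1 (1.38-fold, exact p = 0.0281). INSIG1 holds the sterol sensor in the endoplasmic reticulum, and its values were 8.77, 9.16 and 9.66 in group IM10 against 8.14, 8.75 and 9.08 in group CON. The median of the list stayed between 0.08 and 0.151 in all refits without 1 pig. CYP7A1, the rate-limiting enzyme of bile acid synthesis, rose 1.29-fold with 9.62, 9.89 and 9.99 in group IM10 against 8.95, 9.52 and 9.89 in group CON, as the only 1 of 16 bile acid genes. The controls were spread over a wide range, and 3 pigs of group IM10 exceeded the highest of them. CYP7A1 did not meet the criteria without the 3 pigs high in smooth muscle markers, though its difference was 0.36, against 0.37 with all pigs.

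Single members rose in 4 further lipid lists whose medians lay between -0.015 and 0.004. CHKA, the first enzyme of phosphatidylcholine synthesis from choline, rose 1.30-fold among 25 phospholipid genes (8.01, 8.31 and 8.74 in group IM10 against 7.77, 7.92 and 8.32 in group CON). LIPG, an endothelial lipase that acts on HDL, rose 1.29-fold among 24 genes of apolipoproteins and lipoprotein processing, and 5 pigs of group IM10 were above every control. ASAH2, a ceramidase, rose among 28 sphingolipid genes and ACSL4, which activates arachidonic acid, among 39 genes of fatty acid oxidation and ketogenesis. For ASAH2 the difference of 1.19 was 0.62 without CON replicate 5, still past the criteria, and its p missed 0.05 without IM10 replicate 1, 2 or 6 (differences of 0.62 to 1.40 over all refits). ACSL4 lost the criteria in 8 of the 12 refits (0.38 to 0.65). ASAH2 (1.18) and ACSL4 (0.55) did not meet them without the 3 pigs high in smooth muscle markers. With all pigs ACSL4 differed by 0.46.

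The lists of carbohydrate and energy metabolism held 1 change each, beside 1.79% of all named genes that changed. Of 41 genes of glycolysis, gluconeogenesis and glycogen 23 were higher, and only PPP1R3B, which targets a phosphatase to glycogen, fell (1.38-fold, lost in 7 of the 12 refits, differences of -0.60 to -0.34). Of 14 genes on the list of the tricarboxylic acid cycle 12 were higher, by a median of 0.038. The single rise was ME1, which is not itself a step of the cycle, and no other member met the criteria. Of 50 genes of oxidative phosphorylation NDUFA1 of complex I rose (1.2-fold, lost in 6 of the 12 refits, differences of 0.24 to 0.31), and the median difference was 0.003.

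Most genes that dispose of nitrogen were lower. In the list of the urea cycle and nitrogen disposal 11 of 15 genes were lower, with a median difference of -0.075. ASS1, which joins citrulline to aspartate, had 9.44, 9.82 and 10.17 in group IM10 against 9.87, 10.24 and 10.44 in group CON (1.32-fold lower, exact p = 0.0195), but a second, dimmer probe set of this gene differed by 1.25 in the other direction and met the criteria as a rise (limma, unadjusted p = 0.0121), so the direction of ASS1 depends on the probe set and its place among the falls on the choice of the brighter one. ARG2, the mitochondrial arginase, fell 1.31-fold with 3.73, 3.90 and 4.16 in group IM10 against 3.83, 4.27 and 4.68 in group CON. GLS2, the liver glutaminase that releases ammonia for the cycle, fell 1.26-fold, with 7.54, 8.06 and 8.55 in group IM10 against 8.13, 8.28 and 8.71 in group CON. The groups overlapped for all 3 genes, and GLS2 lost the criteria in 6 of the 12 refits (-0.43 to -0.23). Among 35 genes of amino acid breakdown, 30 genes of methionine, one-carbon, creatine and polyamine metabolism and 28 amino acid and peptide transporters, 0 changed.

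Nucleotide metabolism showed the reverse. Of 39 genes of purine and pyrimidine metabolism 4 rose and 0 fell, and 25 were higher. ATIC, which closes the purine ring, had 7.67, 7.88 and 8.21 in group IM10 against 7.34, 7.60 and 7.88 in group CON (1.24-fold, exact p = 0.039). ENTPD5, which splits nucleoside diphosphates in the endoplasmic reticulum, had 7.48, 8.03 and 8.21 in group IM10 against 7.32, 7.5 and 7.95 in group CON (1.27-fold, exact p = 0.0346). PNP, which breaks down purine nucleosides, rose 1.27-fold and AK5, an adenylate kinase, 1.25-fold. Only ENTPD5 met the criteria in each refit, since ATIC lost them without IM10 replicate 3 (0.25), AK5 without IM10 replicate 5 (0.24) and PNP in 7 of the 12 refits (0.25 to 0.43, and 0.15 without the 3 pigs high in smooth muscle markers). AK5 (0.25) and ATIC (0.30) likewise did not meet the criteria without these 3 pigs.

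Iron and heme genes divided. Hepcidin and TFRC, the transferrin receptor (1.45-fold; 9.15, 9.68 and 9.86 in group IM10 against 8.57, 9.07 and 9.54 in group CON), rose. ALAS1, the first enzyme of heme synthesis in liver, fell 1.28-fold, with 9.42, 9.54 and 10.00 in group IM10 against 9.79, 10.02 and 10.17 in group CON (exact p = 0.00866). Of group IM10 5 pigs were below every control, IM10 replicate 3 lay among the controls, and a second ALAS1 probe set differed by -0.31. Without the 3 pigs high in smooth muscle markers the difference of ALAS1 was -0.21, against -0.36 with all pigs, and the criteria were not met. Of the 33 genes of this list 22 were lower, with a median difference of -0.018. Among 29 genes for zinc, copper and selenium 20 were lower (median difference -0.060), and SELENOS, a selenoprotein of the endoplasmic reticulum, fell 1.22-fold, though it lost the criteria without CON replicate 4, CON replicate 5 or IM10 replicate 3 (differences of -0.35 to -0.21 over all refits).

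CYP26A1, which destroys retinoic acid and is itself induced by it, fell 1.32-fold. It had 4.93, 5.25 and 5.63 in group IM10 against 5.47, 5.65 and 5.86 in group CON (exact p = 0.013), and 5 pigs were below every control. The other 16 measured genes of retinoid metabolism did not change, but only 17 of the 31 genes on this list were measured. The paper reports the retinol dehydrogenase RDH16 as the most strongly raised liver transcript of group IM10. RDH16 was not among the 220 named genes that met the criteria here, and probe sets without a name were not searched for it. The counts of this list therefore do not show that no retinol enzyme rose. Of 34 phase I enzymes of drug metabolism 24 were higher and 3 rose. CYP2A19 had 10.06, 10.16 and 10.26 in group IM10 against 9.70, 9.74 and 10.15 in group CON (1.27-fold, exact p = 0.00649), CYP1A2 was 1.30-fold and CYP1A1 1.23-fold higher. CYP1A2 and CYP1A1 are classic targets of the aryl hydrocarbon receptor, and CYP1A1 was sensitive to CON replicate 3, CON replicate 6 and IM10 replicate 2 (differences of 0.20 to 0.36) and did not meet the criteria without the 3 pigs high in smooth muscle markers (0.24). NQO1 (1.32-fold), ME1 and PIR (1.24-fold, difference 0.26 and criteria lost without IM10 replicate 2) rose among 32 NRF2 antioxidant genes, and 0 of 18 phase II enzymes changed.

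Genes for making and folding proteins shifted by small amounts that ran in opposite directions. Cytosolic ribosomal proteins were higher in 33 of 43 cases, by a median of 0.065, whereas genes of ribosome biogenesis and RNA polymerase I were lower in 46 of 60 cases, by a median of -0.051, and mitochondrial ribosomal proteins in 34 of 53 cases (-0.032). Only 1 of these genes, SURF6, met the criteria. URB2, which fell as given above, was not on these lists. RPS27A, which is made as a fusion with ubiquitin, was at 8.94, 9.20 and 9.33 in group IM10 and 8.79, 9.04 and 9.09 in group CON, a difference of 0.20. RPS28 of the small subunit differed by 0.18. NOP56, of the snoRNA particles that methylate ribosomal RNA, was at 7.55, 7.65 and 7.70 in group IM10 against 7.67, 7.82 and 8.02 in group CON, a difference of -0.20 with 4 pigs of group IM10 below every control. SURF6, a nucleolar protein, rose, with 3.89, 4.13 and 4.19 in group IM10 against 3.54, 3.78 and 3.89 in group CON (1.25-fold). SURF6 did not meet the criteria without the 3 pigs high in smooth muscle markers (0.24).

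These list means overlapped between the groups. The mean over the ribosomal proteins was 7.99 to 8.15 in group IM10 and 7.90 to 8.06 in group CON, with 4 pigs of group IM10 above every control. For ribosome biogenesis it was 6.04 to 6.12 in group IM10 and 6.07 to 6.25 in group CON. The medians kept their sign in each refit without 1 pig (0.038 to 0.074 for ribosomal proteins, -0.069 to -0.026 for ribosome biogenesis), without the pigs high in smooth muscle markers (0.078 and -0.052) and after either rescaling of the arrays.

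The unfolded protein response was lower in 31 of 38 genes, by a median of -0.067, and 3 of them fell. DNAJB9, a cochaperone of the endoplasmic reticulum, had 7.90, 8.23 and 8.46 in group IM10 against 8.29, 8.50 and 8.83 in group CON (1.27-fold lower, exact p = 0.0325). HSPA13, an ATPase of the HSP70 family, was 1.30-fold lower and lost the criteria in 5 of the 12 refits (-0.45 to -0.27), and SELENOS was the third. Among 41 cytosolic and mitochondrial chaperones FKBP5, a cochaperone of steroid receptors that glucocorticoids induce, fell 1.24-fold with 6.25, 6.53 and 6.79 in group IM10 against 6.75, 6.81 and 6.99 in group CON (exact p = 0.00866). In group IM10 5 pigs were below every control, and without IM10 replicate 2 the difference was -0.26 and fell short of 1.2-fold. HSPH1, a nucleotide exchange factor for HSP70, fell 1.24-fold and was sensitive to CON replicate 3 and IM10 replicate 5 (-0.41 to -0.26). Neither the 34 proteasome genes nor the 30 genes of the amino acid shortage response held a change. Of 52 genes of lysosomes and autophagy, ATG14, which starts autophagosomes, and FBXO32, a ubiquitin ligase known from muscle atrophy, both rose 1.25-fold, and FBXO32 lost the criteria without CON replicate 1 (0.24). DNAJB9 (-0.29), HSPA13 (-0.30) and HSPH1 (-0.28) did not meet the criteria without the 3 pigs high in smooth muscle markers.

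**Figure D4:**
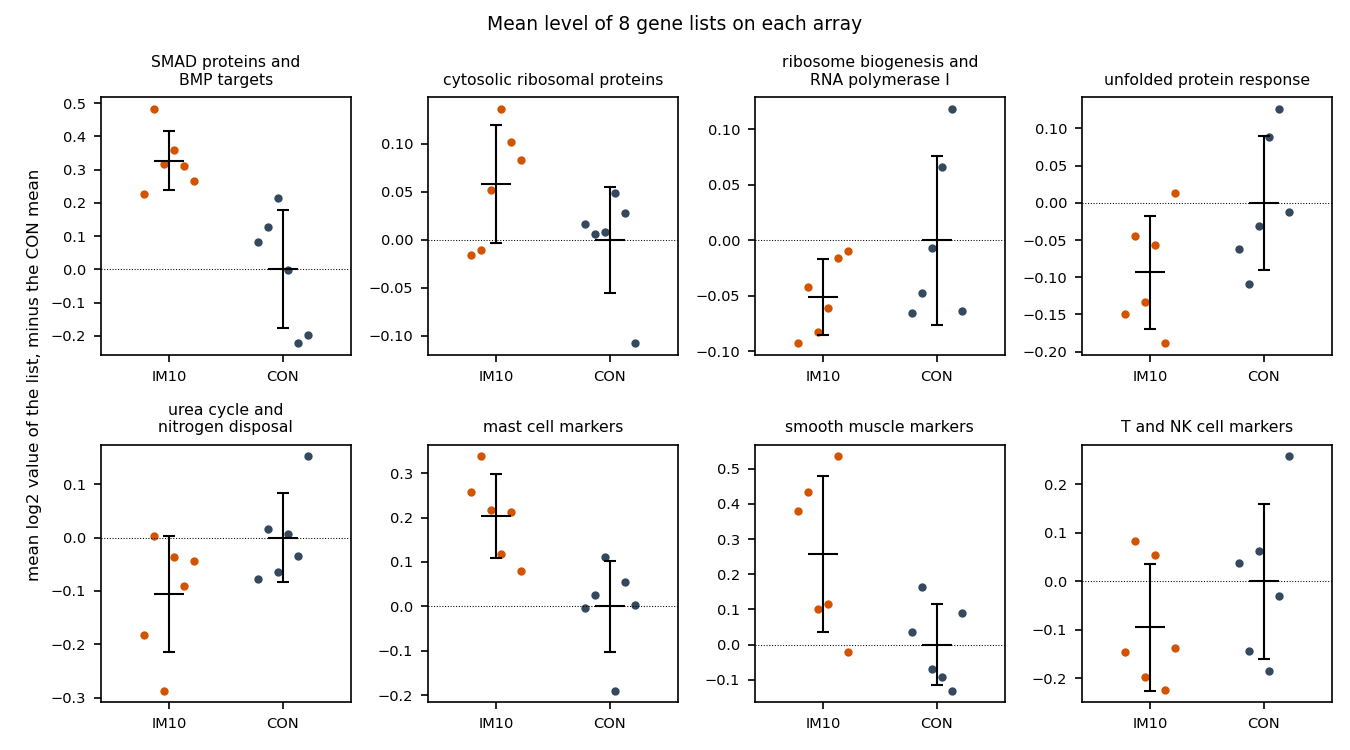
Mean log2 value over the genes of 8 lists on each array, minus the mean of group CON (y axis), for the pigs of group IM10 and group CON; bars are the mean ± SD of 6 pigs. Only the SMAD proteins and BMP targets were without overlap; for smooth muscle markers 3 pigs of group IM10 stood above every control and 3 did not.

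Secreted plasma proteins held 2 rises and 2 falls, none of them in complement. Among 26 complement genes 0 changed, and the mean level was 9.44 to 9.65 in group IM10 and 9.43 to 9.71 in group CON. Of 31 genes of coagulation and fibrinolysis TFPI, the inhibitor of the tissue factor pathway, rose 1.23-fold, but not without CON replicate 1, IM10 replicate 4 or IM10 replicate 6 (differences of 0.23 to 0.35). Among 31 acute phase and other secreted proteins PI15, a trypsin inhibitor, rose 1.23-fold at a very low level and SLPI and CRP, the C-reactive protein, fell. CRP was 1.52-fold lower, with 3 pigs of group IM10 below every control, and 8 of the 12 refits lost it (differences of -0.74 to -0.33). PI15 lost the criteria without IM10 replicate 2 or IM10 replicate 5 (differences of 0.23 to 0.36), and its difference was 0.19 without the 3 pigs high in smooth muscle markers. CRP (-0.53) did not meet the criteria without them either.

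Chemokines and interleukins fell where they changed. Of 100 chemokines, interleukins and their receptors 63 were lower, 5 fell and 0 rose. CCL14, a chemokine for monocytes, had 5.74, 6.12 and 6.46 in group IM10 against 6.22, 6.48 and 6.81 in group CON (1.33-fold lower, exact p = 0.0216). CCL4, made by activated macrophages and lymphocytes, had 5.92, 6.06 and 6.18 in group IM10 against 6.14, 6.38 and 6.65 in group CON (1.25-fold lower, exact p = 0.00649). For both chemokines 5 pigs of group IM10 were below every control, and both calls held in each refit without 1 pig. IL17D, IL6 and IL17RB fell 1.24-, 1.22- and 1.2-fold. IL17D lost the criteria without CON replicate 6 (-0.26), IL6, which drives the acute phase response, in 4 (-0.37 to -0.22) and IL17RB, a receptor for IL-25, in 7 of the 12 refits (-0.31 to -0.22). CCL14 (-0.32) and IL6 (-0.23) did not meet the criteria without the 3 pigs high in smooth muscle markers.

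Interferon response genes rose where they changed, though unevenly. Of 35 genes 21 were higher, and TBKBP1 (1.28-fold), IFIT3 (1.28-fold) and IFN-ALPHA-4 (1.23-fold) rose. TBKBP1, an adaptor of the kinase TBK1, had 5.07, 5.18 and 5.49 in group IM10 against 4.54, 4.97 and 5.13 in group CON and was the only 1 of them that held in each refit without 1 pig. The median difference of the list, 0.063, ranged from -0.029 to 0.117 when 1 pig was left out and was -0.058 without the 3 pigs high in smooth muscle markers. IFIT3 was lost in 7 of the 12 refits (0.23 to 0.42, and 0.21 without these 3 pigs), and IFN-ALPHA-4 without CON replicate 6 or IM10 replicate 4 (0.23 to 0.36). Of 47 genes of pattern recognition and NF-kappaB, MAP3K13, a kinase upstream of JNK, rose 1.31-fold and CLEC4F, a lectin of Kupffer cells in rodents, fell 1.34-fold. CLEC4F did not meet the criteria without these 3 pigs (-0.30). The 25 genes of antigen presentation held 0 changes.

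Genes of the matrix and of cell contacts rose where they changed. Of 62 matrix glycoproteins and proteases 5 rose and 0 fell. CCDC80, a matrix protein secreted by fat and stromal cells, had 6.40, 6.58 and 6.79 in group IM10 against 6.03, 6.17 and 6.47 in group CON (1.31-fold, exact p = 0.00433). NOV, also called CCN3, a matricellular protein, had 5.85, 6.30 and 6.76 in group IM10 against 5.59, 5.87 and 6.02 in group CON (1.41-fold, exact p = 0.013). In both genes 5 pigs of group IM10 were above every control, and NOV differed by 0.31 in place of 0.50 without the 3 pigs high in smooth muscle markers, still within the criteria. MMP7, a metalloproteinase of bile duct cells, rose 1.48-fold but was lost in 7 of the 12 refits (0.39 to 0.70), OLFML2A rose 1.23-fold and tenascin C (TNC) 1.22-fold. OLFML2A lost the criteria without CON replicate 5, CON replicate 6 or IM10 replicate 5 (0.26 to 0.33) and TNC without CON replicate 1 or CON replicate 2 (0.22 to 0.35). Integrin ITGB4 (1.23-fold, lost without CON replicate 3 or IM10 replicate 2, 0.22 to 0.37) and CLDN5 rose among 44 genes of integrins and junctions. Collagens had 19 of 29 genes higher and 0 changes. OLFML2A (0.23) and MMP7 (0.59) did not meet the criteria without the 3 pigs, against differences of 0.29 and 0.57 with all pigs.

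Genes of growth control held few changes that met the criteria in each refit. Among 63 genes of the cell cycle and DNA replication MASTL, a kinase that keeps mitosis going, rose 1.46-fold on a dim probe set (3.56, 3.72 and 3.93 in group IM10 against 2.63, 3.16 and 3.99 in group CON), while its other probe set differed by 0.15. KIF20B, a kinesin of cell division, and POLE2, a subunit of DNA polymerase epsilon, rose 1.24- and 1.2-fold, and CDKN1A, the inhibitor p21, fell 1.26-fold. KIF20B lost the criteria without IM10 replicate 1 (0.26), POLE2 in 4 (0.18 to 0.32) and CDKN1A in 9 of the 12 refits (-0.45 to -0.26). Of 39 genes of DNA damage and p53 signalling TDP2 rose 1.23-fold, and XRCC2 fell 1.30-fold beside CDKN1A. TDP2 lost the criteria without CON replicate 2 or CON replicate 4 (0.25 to 0.37) and XRCC2 in 8 of the 12 refits (-0.50 to -0.29). POLE2 (0.26), CDKN1A (-0.40) and TDP2 (0.23) did not meet the criteria without the 3 pigs high in smooth muscle markers.

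Among transporters and channels the smallest p was that of KCNK5, a potassium channel of the TASK family. It fell 1.36-fold, with 5.26, 5.51 and 5.77 in group IM10 against 5.77, 5.92 and 6.11 in group CON (exact p = 0.00433), so that the highest pig of group IM10 only equalled the lowest control, and a second probe set differed by -0.37. KCNQ3 rose 1.35-fold and KCNT2 fell 1.26-fold among the 142 channel genes. Each was lost in 8 of the 12 refits (0.33 to 0.60 for KCNQ3 and -0.43 to -0.26 for KCNT2), and KCNT2 differed by -0.20 without the 3 pigs high in smooth muscle markers. Of 50 carriers of sugars, monocarboxylates and ions SLC5A2, the low-affinity sodium-glucose cotransporter SGLT2, SLC5A12, a lactate carrier, and the water channel AQP2 each rose 1.23-fold. AQP2 lost the criteria in 4 of the 12 refits (0.23 to 0.35, and 0.16 without the same 3 pigs) and SLC5A12 without IM10 replicate 4 (0.24). SLC25A33, a pyrimidine nucleotide carrier of mitochondria, fell 1.26-fold as the only 1 of 33 SLC25 carriers. SLC5A2 (0.24), SLC5A12 (0.26), SLC25A33 (-0.24) and KCNQ3 (0.44) did not meet the criteria without these pigs, nor did KCNT2 and AQP2. With all pigs KCNQ3 differed by 0.43.

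The counts in the gene families stand beside 1.12% of all named genes that rose and 0.666% that fell. Whether the families differed in their share of changes was not tested. Of 149 zinc finger genes of the ZNF and ZSCAN families ZNF521 alone rose (1.23-fold, lost without CON replicate 5, 0.24). TRIM15 rose 1.37-fold among 36 tripartite motif genes, with 5.25, 5.28 and 5.68 in group IM10 against 4.62, 4.92 and 5.27 in group CON. Among 44 F-box genes FBXL20 (1.23-fold, lost without IM10 replicate 2, 0.26) and FBXO32 rose and FBXO17 fell (1.23-fold, lost in 6 of the 12 refits, -0.39 to -0.23). Homeobox and paired box genes were higher in 44 of 66 cases with 0 changes, and KIF20B was the single change among 67 genes of kinesins, dyneins and cilia. Germ cell genes went both ways, and their mean level was low, at 3.52 to 3.67 in group IM10 and 3.61 to 3.70 in group CON. Of 39 genes DND1 (1.31-fold) and PIWIL3 rose, and ADAD1 (2.77-fold) and GTSF1 (2.08-fold) fell. ADAD1, an RNA-binding protein of the testis, ranged from 3.85 to 7.39 in group IM10 and from 6.67 to 7.62 in group CON, with 5 pigs of group IM10 below every control. ZNF521 (0.23), FBXL20 (0.25), FBXO17 (-0.32), DND1 (0.29) and GTSF1 (-0.89) did not meet the criteria without the 3 pigs high in smooth muscle markers.

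Markers of other cells in the liver moved in both directions. Of 6 markers of mast cells 5 were higher, and besides FCER1A the receptor KIT rose 1.27-fold and MS4A2, the beta chain of the IgE receptor, 1.22-fold. The mean over the 6 genes was 4.58 to 4.84 in group IM10 and 4.31 to 4.61 in group CON, with 5 pigs of group IM10 above every control, and the median difference of 0.158 was 0.073 without the 3 pigs high in smooth muscle markers. KIT was sensitive to CON replicate 2 and CON replicate 4 (0.27 to 0.43) and MS4A2 to CON replicate 4, CON replicate 6 and IM10 replicate 2 (0.22 to 0.35), and neither KIT (0.30) nor MS4A2 (0.19) met the criteria without the 3 pigs. Of 27 markers of T and NK cells 19 were lower, with a median difference of -0.093 that ranged from -0.146 to -0.011 when 1 pig was left out, and SLAMF1, CD5 and CCL4 fell 1.27-, 1.25- and 1.25-fold. Their mean overlapped widely, at 4.85 to 5.16 in group IM10 and 4.89 to 5.33 in group CON.

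Macrophage markers were lower in 11 of 14 genes, with a median difference of -0.048, and CLEC4F and TIMD4, a receptor by which Kupffer cells take up dying cells, fell. CLEC4F had 6.61, 7.22 and 7.57 in group IM10 against 7.39, 7.48 and 7.81 in group CON (exact p = 0.0455), and TIMD4 (1.2-fold) was lost in 6 of the 12 refits (-0.35 to -0.20). The smooth muscle genes ACTG2, CNN1, TAGLN and SYNPO2 rose 2.87-, 1.46-, 1.34- and 1.21-fold among 13 markers. The median difference of these markers was 0.140, and 0.087 without the 3 pigs, which were picked by these markers. Without them the differences of ACTG2, CNN1, TAGLN and SYNPO2 were 0.38, 0.15, 0.13 and 0.22, against 1.52, 0.54, 0.42 and 0.28 with all pigs, and did not meet the criteria. SYNPO2 was sensitive to CON replicate 3 and CON replicate 5 (0.20 to 0.35). Erythroid markers were higher in 12 of 15 genes (median difference 0.103, TFRC as the single rise), whereas markers of B cells, neutrophils, platelets, stellate cells, pancreas, and mesothelium or gallbladder held 0 changes. Bile duct and endothelial markers held 1 rise each, MMP7 and CLDN5.

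Group IM5 shared its controls with group IM10, so its values are only set beside them, for 12 genes chosen after their values were seen. In some genes the lower amount of insect meal was at the level of the controls. KCNK5 averaged 5.93 ± 0.12 in group CON, 5.95 in group IM5 and 5.50 ± 0.18 in group IM10 (SD, n = 6). ALAS1 averaged 9.98, 10.00 and 9.62 in groups CON, IM5 and IM10, and CLEC4F 7.56, 7.62 and 7.14. CYP7A1, XKR9 and GLS2 were likewise within 0.05 of the controls in group IM5, at differences of 0.01, 0.04 and 0.00.

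In other genes group IM5 stood at the level of group IM10. CYP1A2 averaged 10.76, 11.17 and 11.14 in groups CON, IM5 and IM10, and CLDN5 averaged 5.44, 5.73 and 5.72. FCER1A was 0.51 above the controls in group IM5 and 0.61 in group IM10, ATIC 0.37 and 0.31, CSTL1 0.29 and 0.32, and NOV 0.47 and 0.50. Whether the groups IM5 and IM10 differed in these genes was not tested.

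**Figure D5:**
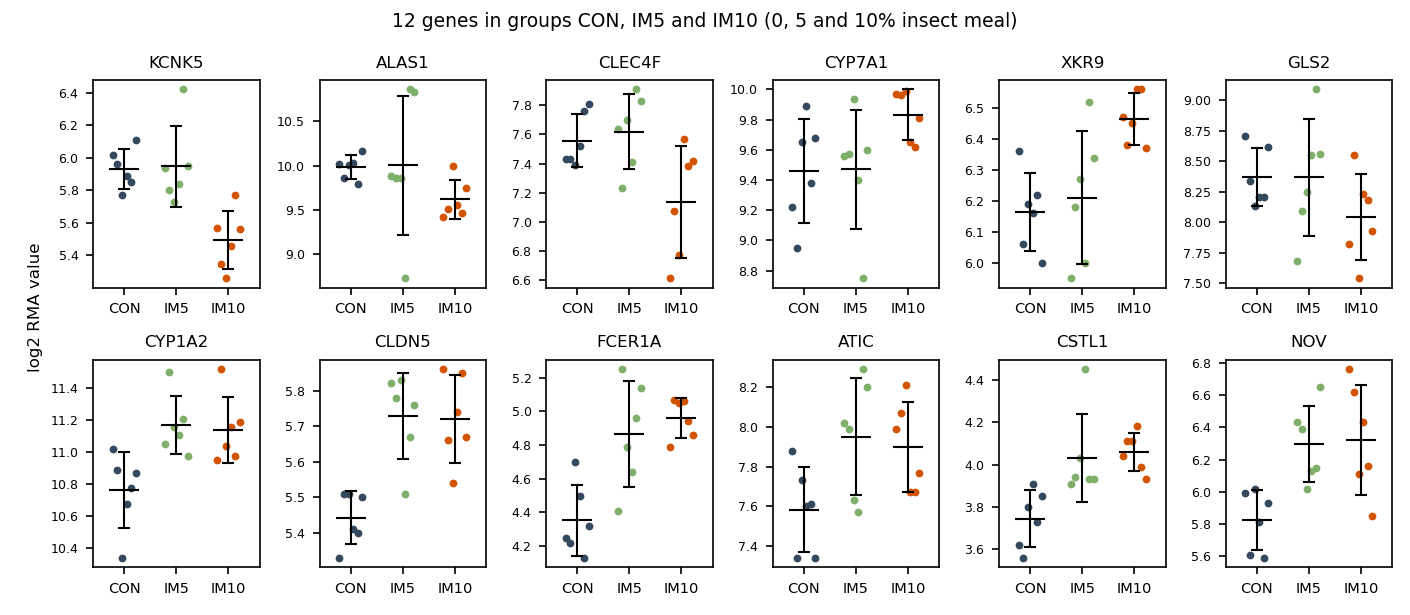
Log2 RMA values (y axis) of the pigs of groups CON, IM5 and IM10 (0, 5 and 10% insect meal) for 12 genes; points are pigs and bars the mean ± SD (n = 6 per group). In the upper row group IM5 was near group CON, with KCNK5 at 5.93, 5.95 and 5.50, and in the lower row near group IM10, with CLDN5 at 5.44, 5.73 and 5.72.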

How the data were processed

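Total RNA of whole liver was hybridised to Affymetrix Porcine Gene 1.0 ST arrays, 1 array per pig. The deposited values are on the log2 scale and were made by the authors with the RMA algorithm, which includes background correction, normalization across arrays and a summary of the probes. Affymetrix Expression Console is named in the submitters' notes, without a version. The table held 25388 probe sets with 2 decimals and 0 columns of no sample. Detection calls and scanner files were not used here, so no background level is known for low values. Precision was limited by the number of arrays.

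Names came from the platform annotation, and 0 of its symbols clashed with the Sscrofa11.1 gene table where both held the gene. Of the probe sets 13257 had 1 symbol, 427 several genes and 11704 were not listed. For 890 symbols with several probe sets the one with the highest mean stood for the gene. A total of 977 probe sets shared their values with another.

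The fit used limma (version 3.58.1, under R 4.3.3) with the 12 arrays and no covariates, with Benjamini-Hochberg adjustment over all probe sets. The scripts were tested on simulated data. Single genes had a two-sided exact permutation test over 924 arrangements. Genes were named where they met the criteria without overlap (the 12 largest rises and falls), where they met the criteria within a list, or where they had one of the 2 smallest p of a list, 176 genes in all. The text gives 111 genes with values. The members and lists were chosen with earlier results of these data known. Alternatives were the methods' t-test, a fit to all 18 arrays, other prior variances, array weights, other normalizations, filters, the replicate number as a block, and leaving out arrays. Promoter sequences were not analysed here.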

Additional observations from a re-analysis of the deposited data

Results flagged for a closer look

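In 222 groups of 6 values, those of the 111 named genes in groups IM10 and CON, 9 single pigs stood apart from the other 5 with a gap to the nearest of them that took a larger share of the group's range than Dixon's limit for 6 values allows, and chance alone gives about 5% of groups. PIWIL3 in IM10 replicate 5 was at 3.24, with the other pigs of its group between 2.69 and 2.80, and the difference of 0.37 was 0.29 without it. ME1 in IM10 replicate 3 was at 5.60 (others 4.78 to 5.01) and IFN-ALPHA-4 in IM10 replicate 4 at 3.72 (others 3.23 to 3.41). Both genes no longer met the criteria without that pig, with differences of 0.21 and 0.23. Low single pigs of group IM10 were found for NDUFA1, with IM10 replicate 1 at 4.57 (others 4.77 to 4.85), and ZNF521, with IM10 replicate 6 at 4.90 (others 5.20 to 5.31), and both still met the criteria without them.

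Among the controls, CON replicate 3 was the high pig for URB2 (5.23, others 4.76 to 4.92), CYP2A19 (10.15, others 9.70 to 9.81) and KCNQ3 (6.30, others 5.23 to 5.40). Without it the differences were -0.32 for URB2, 0.42 for CYP2A19 and 0.60 for KCNQ3, and all met the criteria. ASAH2 in CON replicate 5 was at 3.41 (others 6.49 to 7.00), and the difference of 1.19 was 0.62 without it.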

How the results depend on the processing

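The counts of 323 rises and 203 falls changed by over 1.5 times under 4 settings. With the dimmest of 3 equal bins of probe sets left out they were 195 and 129, with 1 probe set for each named gene in the fit 140 and 84, and with a fold of over 1.5 they were 31 and 15. With the 3 pigs highest in smooth muscle markers removed, 326 probe sets fell, and the cause was not tested. This setting was planned for the count of rises only. For the falls, the adjusted p-values, the single genes and the lists it was chosen after seeing the data. Leaving out 1 pig at a time gave 314 to 373 rises and 195 to 256 falls. The count of adjusted p-values under 0.05 was 0, and 1 with all 18 arrays in the fit and without CON replicate 3, so 0 to 1 over the pigs left out. Probe sets without overlap numbered 34 higher and 31 lower. They were 20 and 47 after centring each array on its median, 17 and 15 with 1 probe set for each gene and 21 higher without the dimmest probe sets. They were 58 to 88 higher and 48 to 78 lower when 1 pig was left out, since fewer pigs overlap less often. Centring moved the median of all differences by -0.012 and quantile normalization by -0.005. With fewer probe sets or genes in the fit, the lower counts follow from the number tested. Of 108 named genes that met the criteria, 85 met them by the methods' t-test and 60 without the 3 pigs. No direction of a named gene was reversed in any setting run. The sign of the median was the same in every setting for 38 of 73 lists, among them those of BMP targets, cholesterol synthesis, nitrogen disposal, ribosomal proteins, ribosome biogenesis and the unfolded protein response.

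Fitting the replicate number as a block gave 360 rises and 249 falls, and 103 of the 108 genes met the criteria. The deviations of pigs of the same number correlated positively, at 0.02 to 0.201, and 3 of 6 pigs of group IM10 correlated best with their own number. Whether pigs of the same number had more in common than the number was not tested. The main fit took the numbers as names only.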
